A study of Mus musculus with 6 samples.

Results

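The replication-dependent histone genes encode the linker histone H1 and the core histones H2A, H2B, H3 and H4 that package newly made DNA. In a table of small RNA counts from extracellular vesicles (EVs) of mouse brain cells, these genes were taken as the sense-strand RefSeq rows whose identifier starts with Hist1h, Hist2h, Hist3h or Hist4h. There were 68 such rows among 61161 rows (20714 of them sense-strand RefSeq genes), and each had an antisense row of the same span, which served as background. The rows fell into 6 of H1, 18 of H2A, 19 of H2B, 12 of H3 and 13 of H4. Of the 68 rows, 54 lie on chromosome 13, 10 on chromosome 3, 3 on chromosome 11 and 1 on chromosome 6. They carried 66 gene names, because Hist1h2ao and Hist1h2br each stand in the table with a further copy.

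EVs had been pelleted by serial centrifugation from medium of primary cortical astrocytes, taken from the dorsal cortices of CD1 mouse pups at postnatal day 4, and from primary neonatal neural stem cells (NSCs) grown from the CD1 subventricular zone. There were 3 astrocyte EV libraries and 3 NSC EV libraries, with no other group and no treatment. The astrocyte cultures had been shaken to remove microglia and then oligodendrocytes, and the final medium held serum. Whether the replicates are separate cultures is not in the labels, and every p-value here therefore covers only how far these 6 samples spread, possibly for technical reasons.

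Replication-dependent histone mRNAs are made in S phase, when DNA is copied, and are the metazoan mRNAs that end without a poly(A) tail. They end in a short stem-loop that the stem-loop binding protein SLBP holds, and the U7 small nuclear ribonucleoprotein guides the cut that forms this end. When replication stops the mRNAs are oligouridylated and degraded from this end by the exonuclease ERI1 with UPF1. The genes stand in clusters of many near-identical copies, so a short read can match several of them.

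Sequences were read from GENCODE vM21 transcripts (GRCm38, the mm10 build of the files) for the rows, all 68 of which matched a GENCODE gene by position. The first set shows the stem-loop, 16 bases in capitals with flanking bases in lower case, because it defines this gene class. It was searched on the transcript strand as GG, then C or T at each of the next 2 bases, CTTTT, any base, AG, A or G at each of the next 2 bases, and CC.
Hist1h1c: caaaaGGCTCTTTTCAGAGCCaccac
Hist1h1d: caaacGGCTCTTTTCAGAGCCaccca
Hist1h4d: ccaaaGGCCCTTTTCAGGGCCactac
Hist1h4b: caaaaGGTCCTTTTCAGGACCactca
Hist2h2ac: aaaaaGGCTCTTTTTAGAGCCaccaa
The capitals of Hist1h1c stand at chr13:23739512-23739527, those of Hist1h1d at chr13:23555787-23555802, those of Hist1h4d at chr13:23581950-23581965 and those of Hist1h4b at chr13:23757366-23757381, all on the plus strand. Those of Hist2h2ac stand at chr3:96220418-96220433 on the minus strand. The motif was found in 44 of the 68 matched rows, each time in the 3′ UTR. Over all protein-coding genes, with the histone genes among them, 48 of 21877 had it, or 0.219%. Only annotated transcripts were searched, so a stem-loop past the end of a transcript could not be found. Among the 44, the version of Hist1h1c was found in 26 rows of H1, H2A, H2B and H3, and the version of Hist1h4d in 7 rows of H4. Many rows cover little more than the coding sequence (42 of 68 span 500 bases or fewer, with a median of 470.5 bases), and the stem-loop lay inside the counted span in 23 rows and outside it in 21.

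The second set shows runs of coding sequence that part the rows by their counts, as described further on. In H2B the run is shown as Hist1h2bn carries it, followed by the closest stretch of 4 rows that lack it, with each differing base in capitals.
Hist1h2bn: gcgaggcgtcccgcctggcgcattaca
Hist1h2bl: gcgaggcTtcccgcctggcgcattaca
Hist3h2ba: gcgaggcCtcccgcctggcgcattaca
Hist2h2be: AcgaggcTtcTcgcctggcgcattaca
Hist2h2bb: gTgaggcTtcccgTctggcgcattaca
The run lies at chr13:21754349-21754375 on the plus strand in the exon of Hist1h2bn. Counted from 1 at the 5′ end of the run, Hist1h2bl differed from it by G8T, Hist3h2ba by G8C, Hist2h2be by G1A, G8T and C11T, and Hist2h2bb by C2T, G8T and C14T. In H3 the run is shown as Hist1h3b carries it, followed by 2 rows that lack it.
Hist1h3b: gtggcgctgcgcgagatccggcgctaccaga
Hist1h3e: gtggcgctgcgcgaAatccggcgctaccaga
Hist2h3b: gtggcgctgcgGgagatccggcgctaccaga
It lies at chr13:23752518-23752548 on the plus strand, in coding sequence. Hist1h3e differed from it by G15A and Hist2h3b by C12G, counted in the same way.

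Library totals over all rows were 85895468, 72359982 and 111851274 counts in astrocyte EVs, against 48217726, 44620985 and 50898531 in NSC EVs. Replicates of one group differed by more than sampling noise in every pair. As a check of the labelled cell types, 2 of 10 astrocyte markers tested were higher in astrocyte EVs by edgeR (Gfap and Aldoc), against a background of 5.54% of all rows tested, and 0 were lower, against 4.24%. With each library left out in turn, Gfap passed in 2 and Aldoc in 0 of the 6 fits. Of the neural progenitor markers, 0 of 8 tested passed in either direction. Markers of other cell types had sense counts in both EV types. Summed by list, these were from 0.0999 (red blood cell) to 3.73 (endothelial and mesenchymal) times the antisense counts. Not every list therefore lay above its antisense background. The summed level of 10 endothelial and mesenchymal markers was 390.4 to 1030 per 1000000 RefSeq sense counts (ppm) in astrocyte EVs, against 2991 to 3776 in NSC EVs, with 92.3% of the counts from Pdgfrb. Without that gene, a choice made after the values were seen, the other 9 held 157.2 to 158.1 ppm in astrocyte EVs, against 95.3 to 172.7 in NSC EVs. All listed markers that the table holds had counts, and their part in the histone results was not tested. In bulk EV RNA, fewer vesicles or cells of a kind and less RNA in each cannot be told apart.

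Sense counts of histone genes were few apart from a pair of linker histone rows. The 68 rows held 4416, 3686 and 60223 counts in astrocyte EVs, against 1884, 1469 and 1433 in NSC EVs. As a share of RefSeq sense counts this was 502.0, 332.4 and 2592 ppm in astrocyte EVs, a mean of 1142 ± 1259 (SD, n = 3), against 171.7, 121.1 and 131.7 ppm in NSC EVs, a mean of 141.5 ± 26.7 (SD, n = 3). All 3 astrocyte EV libraries were above all 3 NSC EV libraries, with replicate 3 far above the other two. Hist1h1c and Hist1h1d made up 88.8%, 80.4% and 91.0% of the histone counts in astrocyte EVs, against 1.65%, 1.29% and 4.26% in NSC EVs. Without this pair, a choice made after the values were seen, the share was 56.4, 65.2 and 233.7 ppm in astrocyte EVs, against 168.9, 119.5 and 126.1 in NSC EVs. The order of the groups then differed between libraries, since astrocyte EV replicates 1 and 2 lay below every NSC EV library and replicate 3 above them all.

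**Figure D1:**
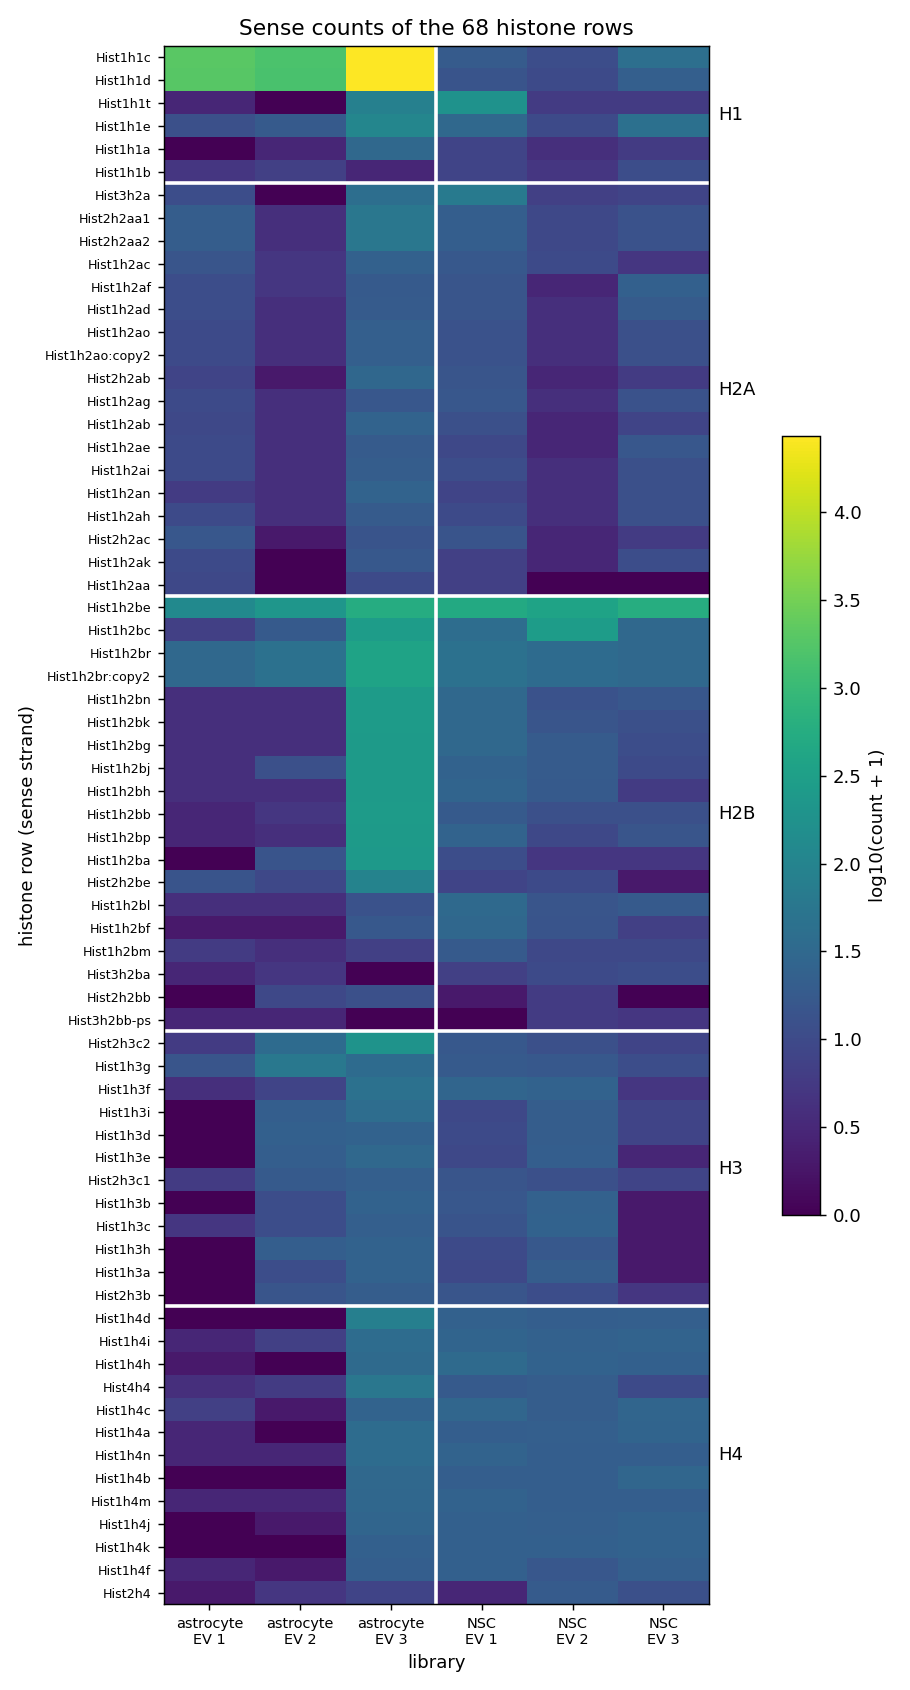
Sense counts of the 68 histone rows (vertical axis, grouped by histone type and ordered by total) in 3 astrocyte EV libraries and 3 NSC EV libraries (horizontal axis), coloured by log10(count + 1). Hist1h1c and Hist1h1d stand out in astrocyte EVs, most H2B rows are bright in astrocyte EV replicate 3, and the H4 rows are dark in astrocyte EV replicates 1 and 2.

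Between EV types, 46 of the 68 rows had enough counts to be tested by edgeR's quasi-likelihood test over 41308 rows. The other 22 did not pass the filter on low counts. Of the 46, 2 were higher in astrocyte EVs, against a background of 5.54% of all rows tested, and 2 were lower, against a background of 4.24%. As shares, 4.35% of tested histone rows passed in each direction, which is near both backgrounds. The median log2 fold change, astrocyte EVs minus NSC EVs, was -0.13 over the histone rows and -0.04 over all rows. Leaving out 1 library changed these calls across the whole table as well as here: no row of the table passed once astrocyte EV replicate 1 or 2 was dropped, and only 4 higher and 14 lower rows passed once NSC EV replicate 3 was. The counts of histone calls ranged from 0 to 2 higher and from 0 to 10 lower as each library was left out.

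**Figure D2:**
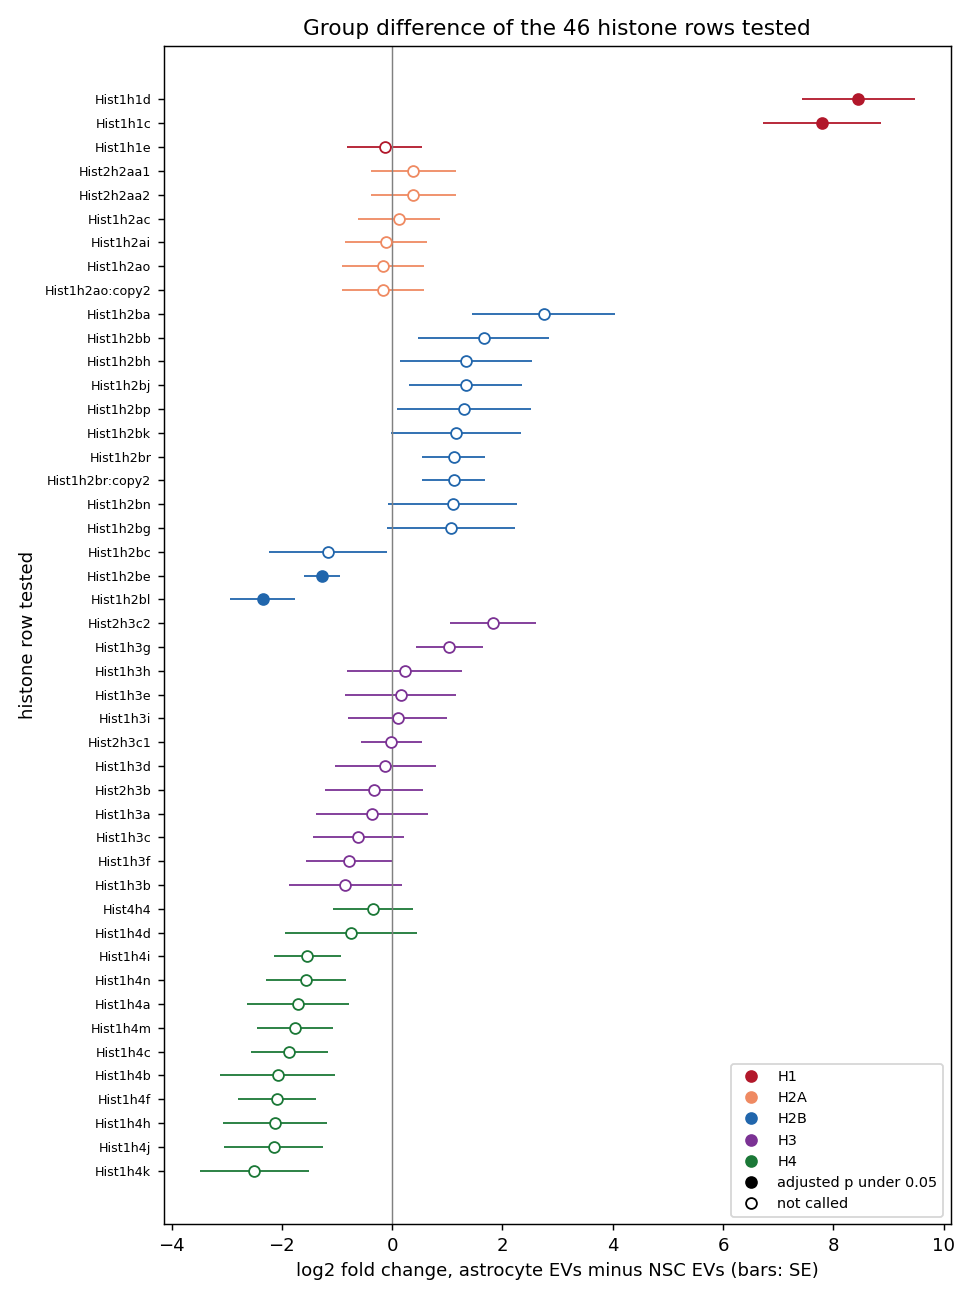
Log2 fold change, astrocyte EVs minus NSC EVs (horizontal axis), of the 46 histone rows tested (vertical axis, grouped by type); bars are the SE and filled points passed an adjusted p of 0.05. Only Hist1h1d and Hist1h1c passed on the higher side and Hist1h2be and Hist1h2bl on the lower side, while all 12 H4 points lie below 0.

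Linker histone H1 binds the DNA between nucleosomes, and Hist1h1c (H1.2) and Hist1h1d (H1.3) are 2 of its somatic forms. Hist1h1c had 1974, 1511 and 27405 counts in astrocyte EVs, against 18, 10 and 40 in NSC EVs. Hist1h1d had 1946, 1452 and 27388 counts in astrocyte EVs, against 13, 9 and 21 in NSC EVs. Both were high in every astrocyte EV library with no overlap between the groups, and both had more than 10 times as many raw counts in replicate 3 as in the other two. After TMM scaling, Hist1h1c had 47.2, 24.1 and 194.2 CPM (counts per 1000000) in astrocyte EVs, against 0.315, 0.159 and 0.724 in NSC EVs. It averaged 88.5 ± 92.2 CPM in astrocyte EVs and 0.399 ± 0.292 in NSC EVs (SD, n = 3 each). The log2 fold change was 7.79 (SE 1.06) for Hist1h1c and 8.45 (SE 1.02) for Hist1h1d, with edgeR adjusted p of 0.0156 and 0.0145. With each library left out in turn it stayed between 6.49 and 8.53 for Hist1h1c and between 7.13 and 8.89 for Hist1h1d, and the adjusted p rose to at most 0.0607 and 0.0586.

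The counts of these linker histone rows went with those of unrelated genes. Jak3, a cytokine receptor kinase, had 1997, 1492 and 27560 counts in astrocyte EVs, against 56, 47 and 23 in NSC EVs. In all, 7 rows of the table came within 10% of Hist1h1c in each of the 3 astrocyte EV libraries: Hist1h1c and Hist1h1d themselves, the sense rows of Jak3, Serbp1 and Sh3d21, and 2 antisense rows. The longest run of bases shared by the transcripts of Hist1h1c, Hist1h1d and Jak3 together was 11 bases. With Serbp1 or Sh3d21 in place of Jak3 it was 11 and 10 bases. Only the transcript strand was searched, and introns and the genes of the 2 antisense rows were not. Hist1h1c and Hist1h1d themselves shared 6 runs of 20 to 54 bases that no other histone row holds, some of them overlapping. The longest is printed here because it is the longest run held by this pair alone. Stretches that another histone row also holds were left out, so the longest stretch shared by the pair was not sought.
Hist1h1c: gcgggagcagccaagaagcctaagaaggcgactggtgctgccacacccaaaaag
It lies at chr13:23739242-23739295 in Hist1h1c and at chr13:23555486-23555539 in Hist1h1d, on the plus strand of the coding sequence of each. The table does not say which part of a row its counts came from, and whether the rows shared reads was not tested.

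The other H1 rows did not follow this pair. Hist1h1e (H1.4), another somatic form and the only other H1 row tested, named here after its values were seen, had 11, 17 and 106 counts in astrocyte EVs, against 31, 9 and 43 in NSC EVs (log2 fold change -0.14, SE 0.68). Hist1h1t, the testis form of H1, had 2, 0 and 83 counts in astrocyte EVs, against 180, 5 and 5 in NSC EVs, and was not tested. In each group 1 library held nearly all of its counts. A count of 0 in a library allows up to 3 counts, for counting error only.

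In H2B, which pairs with H2A in the nucleosome, 13 of 19 rows were tested and the counts parted the rows by sequence. In astrocyte EV replicate 3, 12 of the 19 rows had 255 to 553 counts and the other 7 had 0 to 95. The division at 200 counts was made after the values were seen. All 12 rows held the 27-base run printed above for Hist1h2bn, all 7 others lacked it, and each of the 7 differed from it at position 8. The run was built from 20-base windows held by all of the first and by none of the second. Sequence shared by the 12 rows can therefore continue past its ends. In GENCODE, 12 genes hold the run, and all are Hist1h2b genes. The parting was seen in that library alone. In astrocyte EV replicate 1 the rows with the run had a median of 3 counts and the rows without it 2, and in replicate 2 medians of 7.5 and 3. In NSC EVs the rows with the run had medians of 30.5, 17.5 and 12.5 counts, and the rows without it 7, 9 and 6, with overlapping ranges. The rows that hold the run cannot be taken as 12 separate measurements, since a read within it matches all of them.

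**Figure D3:**
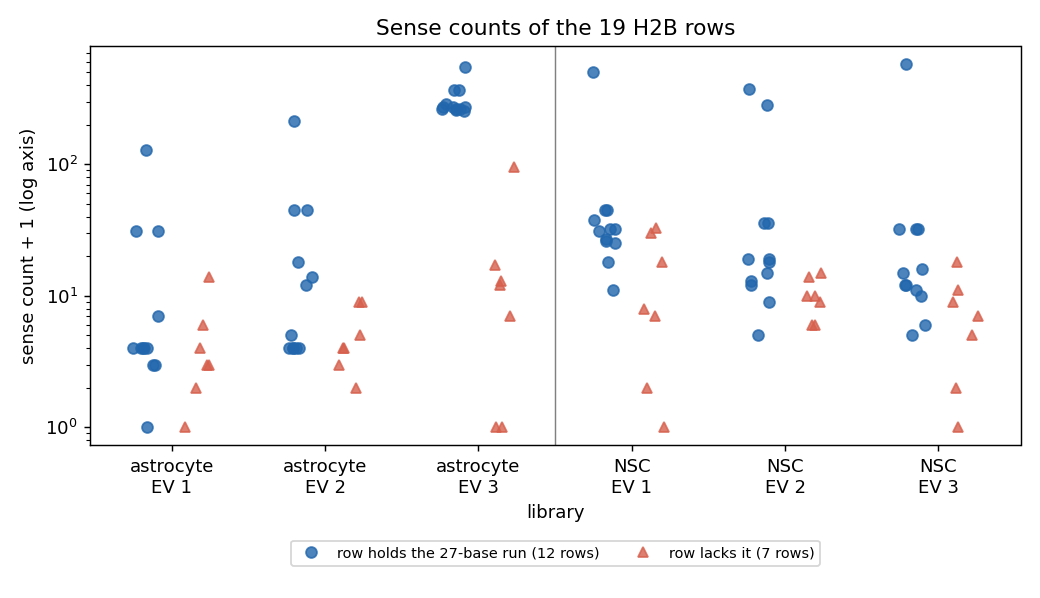
Sense counts plus 1 (log axis) of the 19 H2B rows in each library, as circles for the 12 rows that hold the 27-base run and triangles for the 7 that lack it. The 2 sets are apart in astrocyte EV replicate 3 (255 to 553 against 0 to 95 counts) and overlap in the other 5 libraries.

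The H2B rows past the edgeR test were both lower in astrocyte EVs. Hist1h2bl had 3, 3 and 12 counts in astrocyte EVs, against 32, 14 and 17 in NSC EVs (log2 fold change -2.35, SE 0.59, edgeR adjusted p = 0.0438). It is 1 of the 7 rows that lack the run. Antisense counts of Hist1h2bl were 6, 16 and 14 in astrocyte EVs, against 6, 2 and 1 in NSC EVs. They lay above its sense counts in every astrocyte EV library and below them in every NSC EV library. Hist1h2be had 128, 213 and 553 counts in astrocyte EVs, against 504, 374 and 577 in NSC EVs (log2 fold change -1.28, SE 0.33, edgeR adjusted p = 0.0461). Its row spans 37455 bases and overlaps Hist1h1e on the same strand, and its antisense counts were about as high as its sense counts, 158, 187 and 983 in astrocyte EVs, against 528, 410 and 562 in NSC EVs. With each library left out in turn the adjusted p of Hist1h2bl lay between 0.0703 and 0.14, and that of Hist1h2be between 0.0409 and 0.146. The raw counts of Hist1h2bl did not overlap between EV types (at most 12 in astrocyte EVs and at least 14 in NSC EVs), while those of Hist1h2be overlapped and were apart only after TMM scaling. Over all tested histone rows, 12 did not overlap between groups on the lower side after TMM scaling, against a background of 16.7% of rows (10 H4 rows and the 2 called H2B rows), and 2 on the higher side, against 17.2%.

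The remaining H2B rows did not pass. Hist1h2br had 30, 44 and 369 counts in astrocyte EVs, against 44, 35 and 31 in NSC EVs, and its copy row had the same counts. Hist1h2bc had 6, 17 and 287 counts in astrocyte EVs, against 37, 282 and 31 in NSC EVs, with 1 library in each group far above the others. Hist1h2ba, the testis form of H2B, had 0, 13 and 255 counts in astrocyte EVs, against 10, 4 and 4 in NSC EVs (log2 fold change 2.75, SE 1.30, edgeR adjusted p = 0.202). Hist1h2ba also holds the run, and its counts in astrocyte EV replicate 3 were like those of the somatic H2B rows. Over the 13 tested H2B rows the median log2 fold change was 1.12, and without astrocyte EV replicate 3 it was -2.29 over 14 rows.

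In H4, which forms a tetramer with H3, 12 of 13 rows were tested and 0 passed by edgeR (6 at an unadjusted p under 0.05), while DESeq2 called 2 lower. All 12 had a negative log2 fold change, with a median of -1.81. Hist1h4d had 0, 0 and 81 counts in astrocyte EVs, against 23, 20 and 21 in NSC EVs. Hist1h4i had 2, 6 and 36 counts in astrocyte EVs, against 26, 23 and 25 in NSC EVs (log2 fold change -1.54, SE 0.60, edgeR adjusted p = 0.136). Hist1h4h had 1, 0 and 33 counts in astrocyte EVs, against 33, 24 and 22 in NSC EVs (log2 fold change -2.12, SE 0.95, edgeR adjusted p = 0.178). The 13 rows had 0 to 6 counts in astrocyte EV replicates 1 and 2 and 7 to 81 in replicate 3, and summed to 21, 22 and 440 counts in astrocyte EVs, against 284, 262 and 278 in NSC EVs. The NSC EV libraries were even among themselves, and the astrocyte EV libraries split into 2 low and 1 high. Without astrocyte EV replicate 3, 10 of 13 H4 rows were lower in astrocyte EVs by edgeR, against a background of 2.94% of rows in that fit, and no histone row of another type was, while Hist1h1c and Hist1h1d were again higher, against 6.69%. The median log2 fold change of the H4 rows was then -3.39. With any other library left out, 0 H4 rows were called, as in the full edgeR fit. The fit without astrocyte EV replicate 3 was picked out after the values were seen. H4 rows could also share reads: a median of 72.2% of the 25-base windows of a row stood in another histone row, and the 10 calls are not separate measurements.

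No H3 or H2A row passed between EV types. All 12 H3 rows were tested by edgeR and 1 had an unadjusted p under 0.05, with a median log2 fold change of -0.07. Hist2h3c2 had 5, 34 and 191 counts in astrocyte EVs, against 16, 11 and 7 in NSC EVs (log2 fold change 1.83, SE 0.78, edgeR adjusted p = 0.163). Hist1h3g had 14, 59 and 34 counts in astrocyte EVs, against 17, 16 and 10 in NSC EVs. Hist1h3f had 3, 7 and 45 counts in astrocyte EVs, against 27, 24 and 4 in NSC EVs. In each of the 3 rows the raw counts of the groups overlapped. In H3 all 12 rows share a run of 89 bases, the longest run common to all rows of a type, against 15 bases in H2A, 20 in the 18 protein-coding rows of H2B and 20 in H4.

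Of the H2A rows, 6 of 18 were tested by edgeR and 0 had an unadjusted p under 0.05, with a median log2 fold change of 0.01 and a range of -0.16 to 0.38. Hist2h2aa1 and Hist2h2aa2, a pair of inverted copies, each had 19, 3 and 57 counts in astrocyte EVs, against 20, 8 and 12 in NSC EVs. Hist3h2a had 10, 0 and 39 counts in astrocyte EVs, against 64, 6 and 7 in NSC EVs, and was not tested. Hist1h2aa, the testis form of H2A, had 8, 0 and 9 counts in astrocyte EVs, against 6, 0 and 0 in NSC EVs. At this depth no difference was detectable in H2A, where a median of 85.7% of the 25-base windows of a row stood in another histone row. Over the 5 types, 6 rows had the same 6 counts as another histone row, leaving 65 distinct sets of counts.

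The antisense row of each span gave the background. Sense counts summed over the 6 libraries were above antisense counts in 57 of 68 histone rows, or 83.8%, against 57.1% of 20635 RefSeq genes. Among rows of 500 bases or fewer it was 85.7% of 42 histone rows, against 57.7% of 26 other RefSeq rows. In a fit with each library as its own block, 55 histone rows were tested among 18534 RefSeq genes. Of these, 18 had more sense than antisense counts by edgeR, or 32.7%, against a background of 25.6% of genes, and 1 had fewer, or 1.82%, against 14.5%. Rows of a type can share reads, so the histone shares here and by type below do not count separate measurements. The median log2 ratio of sense to antisense was 1.86 over the histone rows and 0.27 over all genes. With 1 library left out, 13 to 21 rows had more sense counts. By library, however, sense counts were above antisense counts in all 6 libraries in only 13 rows, or 19.1%, against 22.8% of genes.

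The types differed in this background. H4 had 1307 sense and 229 antisense counts in all, with sense above antisense in 13 of 13 rows, and 8 of its 12 tested rows passed. Hist1h4d passed with a log2 ratio of 4.68 (SE 0.995, edgeR adjusted p = 0.0081). H2B had 7064 sense and 3469 antisense counts, and 6 of 15 tested rows passed, among them Hist1h2br with 2.82 (SE 0.44, edgeR adjusted p = 0.00107). H1 had 62360 sense and 177 antisense counts, and 3 of 4 tested rows passed. H2A had 1190 sense and 754 antisense counts, and 0 of 13 tested rows passed with more sense counts. The row that passed the other way was Hist1h2ac. This row, named after its values were seen, had 9, 31 and 39 antisense counts in astrocyte EVs, against 33, 69 and 51 in NSC EVs, with 14, 4 and 23 sense counts in astrocyte EVs, against 16, 9 and 4 in NSC EVs. Its log2 ratio was -1.73 (SE 0.60, edgeR adjusted p = 0.0437, and up to 0.114 with 1 library left out).

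**Figure D4:**
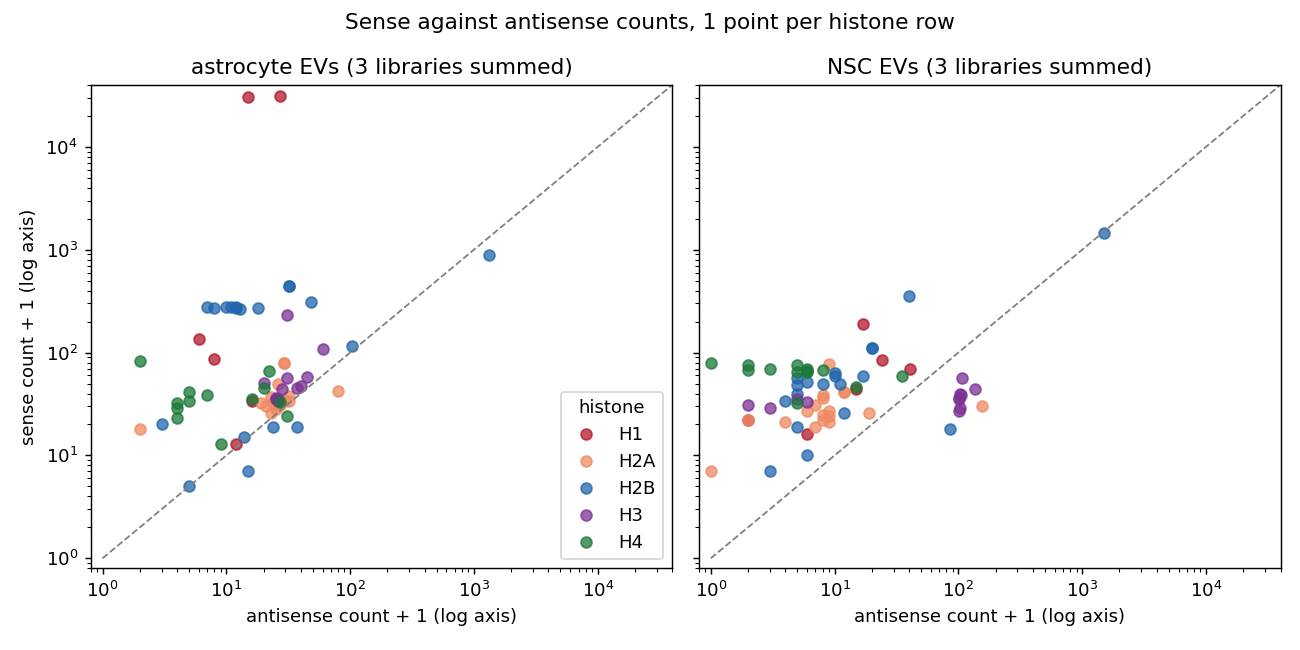
Sense counts plus 1 (vertical, log axis) against antisense counts plus 1 (horizontal, log axis) of each histone row, summed over 3 astrocyte EV libraries (left) and 3 NSC EV libraries (right), coloured by type; the dashed line marks equal counts. Hist1h1c and Hist1h1d lie at the top left in astrocyte EVs, and 8 H3 rows lie below the line at 100 to 135 antisense counts in NSC EVs.

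H3 stood at the other end, with 1190 sense and 1244 antisense counts and sense above antisense in only 4 of 12 rows. Of 11 tested H3 rows, 1 passed with more sense counts and 0 with fewer. It was Hist2h3c2, with a log2 ratio of 2.56 (SE 0.70, edgeR adjusted p = 0.0168, and up to 0.0645 with 1 library left out). The antisense counts parted the rows by sequence. The rows were divided at 40 antisense counts in NSC EV replicate 1, after the values were seen, which gave 8 rows above and 4 below. All 8 rows held the 31-base run printed above for Hist1h3b, and all 4 others lacked it: Hist1h3e differed from it by G15A, and Hist2h3c2, Hist2h3c1 and Hist2h3b by C12G. The run was built from 20-base windows held by all 8 rows and by none of the 4. Sequence shared by the 8 rows can therefore continue past its ends. In astrocyte EVs the 2 sets of rows overlapped in replicates 1 and 3, at 2 to 5 against 1 to 4 and at 11 to 29 against 9 to 18, and touched in replicate 2, at 9 to 25 against 7 to 9 antisense counts in the 8 and the 4 rows. In NSC EV replicate 1, which set the division, the 8 rows had 47 to 57 antisense counts and the 4 rows 0 to 1. The 2 NSC EV libraries not used for it showed the same, with 29 to 35 against 1 to 4 in replicate 2 and 24 to 43 against 0 in replicate 3. A read within the run matches all 8 rows, so these too cannot be taken as 8 separate measurements.

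**Figure D5:**
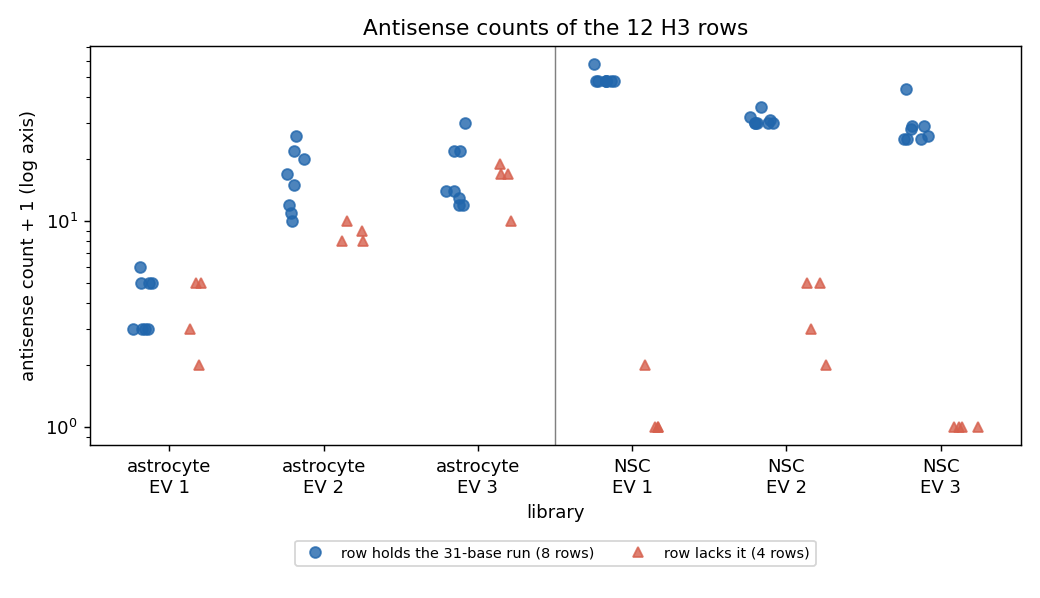
Antisense counts plus 1 (log axis) of the 12 H3 rows in each library, as circles for the 8 rows that hold the 31-base run and triangles for the 4 that lack it. In astrocyte EVs the sets overlap or touch, while in NSC EVs the circles lie at 24 to 57 counts and the triangles at 0 to 4.

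Setting the group difference of each sense row against that of its antisense row gave 2 histone rows past the test. The sense difference exceeded the antisense difference by 8.22 on the log2 scale for Hist1h1c (SE 1.75, edgeR adjusted p = 0.0357) and by 8.64 for Hist1h1d (SE 1.03, edgeR adjusted p = 0.0125), against a background of 3.44% of genes, and 0 of 55 rows passed in the other direction, against 2.6%. Over both directions 8 histone rows had an unadjusted p under 0.05. Antisense counts of Hist1h1c were 2, 5 and 19 in astrocyte EVs, against 37, 3 and 0 in NSC EVs, which did not follow the sense counts. With 1 library left out, 0 to 3 rows passed: dropping astrocyte EV replicate 1, astrocyte EV replicate 2 or NSC EV replicate 3 each left none, and dropping NSC EV replicate 1 left 1.

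Other genes of the histone mRNA pathway were counted from lists, to be read against the backgrounds of 5.54% of all rows higher and 4.24% lower. Of 14 histone pre-mRNA processing genes tested, 1 was higher and 1 lower by edgeR, with a median log2 fold change of -0.09. Slbp, which encodes the stem-loop binding protein, had 131, 149 and 954 counts in astrocyte EVs, against 69, 50 and 57 in NSC EVs (log2 fold change 2.02, SE 0.46, edgeR adjusted p = 0.0345). Srrt, a cap-binding cofactor, had 25, 46 and 61 counts in astrocyte EVs, against 190, 156 and 97 in NSC EVs (log2 fold change -2.11, SE 0.39, edgeR adjusted p = 0.0224). The genes of highest counts in this list, Cpsf2 and Coil, did not pass. Of 10 histone mRNA decay genes, 1 was higher and 1 lower, with a median of 0.09. Atr, a kinase of the replication checkpoint, had 798, 912 and 1908 counts in astrocyte EVs, against 310, 247 and 273 in NSC EVs (log2 fold change 1.72, SE 0.31, edgeR adjusted p = 0.0209). Exosc10, an exonuclease of the nuclear exosome, had 810, 887 and 1974 counts in astrocyte EVs, against 3424, 7148 and 5085 in NSC EVs (log2 fold change -2.48, SE 0.37, edgeR adjusted p = 0.0161). Prkdc, of the second highest counts in this list, did not pass, and neither did Upf1 and Eri1, named after their values were seen.

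Stem-loop and U7 RNAs also have rows of their own, from Rfam. The 9 stem-loop rows with counts held 0, 1 and 9 counts in astrocyte EVs, against 7, 1 and 9 in NSC EVs. The U7 rows held 11, 11 and 22 counts in astrocyte EVs, against 56, 1041 and 527 in NSC EVs, and most of these came from 1 row on chromosome 6, with 9, 3 and 14 counts in astrocyte EVs, against 45, 996 and 477 in NSC EVs. The groups of that row did not overlap, and this row was chosen after its values were seen.

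Variant histones, which are made outside S phase from polyadenylated mRNAs in the main, had 1 of 10 tested genes higher and 0 lower, with a median log2 fold change of -0.53. It was H2afx, the variant phosphorylated at DNA breaks, with 187, 237 and 213 counts in astrocyte EVs, against 28, 50 and 29 in NSC EVs (log2 fold change 2.42, SE 0.48, edgeR adjusted p = 0.0249). H3f3a and H2afy, the variants of highest counts, did not pass. Of 10 histone chaperones, 1 was higher, Nap1l1, with 681, 683 and 1530 counts in astrocyte EVs, against 75, 110 and 63 in NSC EVs (log2 fold change 3.18, SE 0.35, edgeR adjusted p = 0.0126). The chaperones had a median of 0.59, and Hira, of the next highest counts, did not pass. Of 19 genes of S phase and cell division, 1 was higher and 1 lower, with a median of 0.40. Mcm4 and Mcm7 encode subunits of the same replicative helicase. Mcm4 had 85, 133 and 682 counts in astrocyte EVs, against 20, 18 and 45 in NSC EVs. Mcm7 had 707, 900 and 1591 in astrocyte EVs, against 4283, 2576 and 1504 in NSC EVs. Both rows span whole genes with their introns, 13504 bases for Mcm4 and 7274 for Mcm7. Sense counts in all were 983 for Mcm4, against 327 antisense, and 11561 for Mcm7, against 737. Which part of either row gave its counts was not tested. Rrm1, a subunit of ribonucleotide reductase, did not pass, with 97, 227 and 1142 counts in astrocyte EVs, against 122, 81 and 113 in NSC EVs. Each of these 5 lists had 0 to 1 genes called in each direction, against backgrounds of 5.54% of all rows higher and 4.24% lower. Each called gene passed in 0 to 3 of the 6 fits with 1 library left out. Among marker lists the same fit called 0 of 9 oligodendrocyte and 0 of 10 microglia markers, 1 neuron marker in each direction (Gad1 higher, Rbfox3 lower), 1 endothelial and mesenchymal marker in each direction (Col1a2 higher, Pdgfrb lower) and 0 of 3 red blood cell markers. Of the other markers of highest counts in their lists, these did not pass: Slc1a2, Slc1a3, Egfr, Dcx, Itgam, Mbp, Cspg4, Syt1, Pecam1 and Slc4a1, and Hba-a1 was not tested.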

How the data were processed

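Small RNA from EVs was sequenced in 3 astrocyte EV and 3 NSC EV libraries. The authors deposited whole-number counts per annotated row, not normalized, and these deposited counts were used. The submitters list the mm10 build and, without versions, DESeq, bedtools, SAMtools, Bowtie2, Bowtie, FastQC and cutadapt in their processing notes, and the study's methods name the Banana Slug Analytics Platform. The sources used here do not give how reads with several matches were counted. The deposited comparison tables (group means, fold changes, adjusted p-values) were not used. The study's methods name an Illumina small RNA kit and the series record a CleanTag kit.

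The 788 hairpin rows were left out. Counts were fitted with edgeR 4.0.16 in R 4.3.3 (TMM scaling, filterByExpr, quasi-likelihood test, group as the only term), and p-values were adjusted over all rows by the Benjamini-Hochberg method, with calls at 0.05. Strands were compared in an edgeR fit of sense and antisense counts with the library as block. The code was tested on simulated data. Shares and summed levels have no test. DESeq2 1.42.0, other scalings and filters, and each library left out were tried. Sequences and positions came from GENCODE vM21. Named histone rows were the 3 of highest counts in each type, those past the test and the testis forms, and exceptions are marked. Named genes of other lists were the 2 of highest counts and those past the test. One gene is not reported here. The rows and lists were chosen with earlier results of these data known. For counting error only, a count of 0 allows 3 counts.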

Additional observations from a re-analysis of the deposited data

Results flagged for a closer look

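Sense and antisense rows of Hist1h1c and Hist1h1d differed between EV types in unlike ways, by a test of the difference itself. The sense difference minus the antisense difference was 8.22 (log2) for Hist1h1c and 8.64 (log2) for Hist1h1d.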

How the results depend on the processing

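Of the called rows, Hist1h1c and Hist1h1d kept their direction in all 14 alternative fits and Hist1h2bl and Hist1h2be in every one that tested them. Against 2 histone rows higher and 2 lower by edgeR, DESeq2 (no adjusted p for 5 rows) called 4 lower, no TMM scaling 1 lower, no filter 0 lower, and subtraction of antisense counts 1 higher and 1 lower. Without TMM scaling the median of all rows was -0.54 and the calls over all rows split into 738 higher and 3217 lower, against 2290 and 1750. With each library left out, higher calls ranged from 0 to 2 and lower calls from 0 to 10, strand by group calls from 0 to 3, and sense calls from 13 to 21, against 18 in the full fit. Whether the replicate numbers pair the samples is not in the labels. Deviations of each library from its group mean correlated at -0.05, -0.04 and -0.14 between same-numbered libraries. Between libraries of different numbers they correlated at -0.05 to 0.14. Low values of this kind cannot show that samples were unpaired, and no conclusion is drawn. With the number as a replicate block 2 rows were called higher and 0 lower, while the table had 668 and 577 calls. In the strand fits, a replicate block in the form of a replicate-by-strand term, added after the values were seen, left 16 sense calls and 2 strand by group calls. The median log2 fold change of histone rows was -1.22 where every library of one group had to reach 10 counts and -1.28 without astrocyte EV replicate 3. The mean histone share of all counts without hairpins was 214.6 ppm in astrocyte EVs and 33.7 in NSC EVs, and with 1 library left out the share of RefSeq sense counts ranged from 417.2 to 1547 ppm in astrocyte EVs and from 126.4 to 151.7 in NSC EVs. Counts were low, with a median of 90.5 per histone row over the 6 libraries, so small differences were not detectable.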
